A study of Mus musculus with 12 samples.

Results

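Dendritic cells are recognised in RNA by a small set of genes, and 10 of them were followed here through cultures of mouse splenic CD4+ T cells given metformin, FK506 or both. The genes were taken by symbol from the deposited table, and all 10 were found among its 45777 genes. Flt3, Zbtb46, Irf8 and Batf2 encode a growth factor receptor and transcription factors. Itgax, Clec10a, Xcr1, Clec9a, Cd209a and Siglech encode cell surface receptors. CD4+ T cells from the spleens of wild type C57BL/6 mice, given in the sample labels as 7 weeks old, were activated with 0.5 µg/ml anti-CD3 for 3 days, so every group carried this stimulus. The methods of the study also name soluble anti-CD28 for T cell activation, which the labels of these samples do not. The 4 groups of 3 samples each received anti-CD3 alone (Control), metformin, FK506, or metformin with FK506 (Metformin+FK506). FK506, also called tacrolimus, inhibits calcineurin and so blocks the transcription of interleukin-2 in activated T cells, and metformin is an antidiabetic drug that activates AMP-activated protein kinase. The methods of the study describe selection of CD4+ cells with magnetic beads, a step that can leave some cells of other types behind, and the drug doses of these cultures are not given in the sources used here. The labels do not say whether the 3 samples of a group came from separate mice or cultures, so that p-values measure only the spread between these samples, which may be technical.

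Dendritic cells take up antigen and present it to T cells. They depend on the receptor tyrosine kinase Flt3, whose ligand sustains their development from bone marrow precursors. Conventional dendritic cells of type 1 (cDC1) cross-present antigen to CD8+ T cells and require Irf8 and Batf3. Conventional dendritic cells of type 2 (cDC2) present antigen mainly to CD4+ T cells, and plasmacytoid dendritic cells (pDC) secrete type I interferon. In the spleen all of them lie close to T cells, and a preparation of T cells can carry some of them along. Few of the 10 genes belong to 1 cell type alone. Irf8 is also expressed by B cells and activated T cells, Itgax (CD11c) by macrophages, and Clec10a by macrophages and monocytes.

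Each sample had between 43402632 and 64290105 counted reads. FPKM is the number of reads scaled to transcript length in kilobases and to library size, and a gene entered the test if it reached 0.5 FPKM in at least 3 of the 12 samples, which left 15197 genes. Log2 fold changes are from edgeR's quasi-likelihood test of the counts, with their standard error (SE), and a gene was called changed at a Benjamini-Hochberg adjusted p under 0.05. Of the 10 genes, 6 were tested. Flt3, Zbtb46 and Irf8 reached 0.5 FPKM in all 4 groups, whereas Batf2, Itgax and Clec10a reached it only in FK506 and Metformin+FK506, so for those 3 passing the filter already required a difference. Xcr1, Clec9a, Cd209a and Siglech did not pass and are given as read counts. FK506 changed a large part of the transcriptome. It raised 41.3% of all tested genes against Control, so the number of dendritic cell genes that were higher has to be read against that share.

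Of the 10 genes, Itgax and Flt3 had the highest fitted fold changes of the 6 tested in FK506 against Control. The 250 bases before their transcription start sites are shown because both genes went from under 1 FPKM to a clear level under FK506 (RefSeq, GRCm38.p6, each on the strand of its gene). The Itgax sequence lies at chr7:128129300-128129549 on the plus strand and the Flt3 sequence at chr5:147400490-147400739 on the minus strand.
Itgax: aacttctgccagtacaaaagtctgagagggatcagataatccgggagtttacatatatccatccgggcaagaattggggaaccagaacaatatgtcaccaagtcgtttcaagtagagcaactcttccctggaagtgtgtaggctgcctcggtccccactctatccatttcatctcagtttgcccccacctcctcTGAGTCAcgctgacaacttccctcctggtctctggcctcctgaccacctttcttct
Flt3: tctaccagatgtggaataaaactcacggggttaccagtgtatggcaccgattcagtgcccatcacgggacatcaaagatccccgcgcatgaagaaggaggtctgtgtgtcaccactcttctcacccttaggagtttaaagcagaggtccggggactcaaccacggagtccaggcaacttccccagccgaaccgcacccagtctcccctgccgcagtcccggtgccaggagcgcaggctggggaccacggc
The capitals mark TGAGTCA, a match to the AP-1 motif TGANTCA, at bases -56 to -50 of Itgax when the start site is counted as 0. Windows of 300 bases, from 250 before to 50 after a start site, were searched on both strands. The search was for TGANTCA and for motifs that interferon regulatory factors can bind. The latter included GAAA followed after any 2 bases by GAAA (the ISRE form) and GGAA followed after any 2 bases by GAAA (the EICE form). They also included TTTC followed after any 4 bases by TGANTCA (the AICE form), which contains TGANTCA. RefSeq gave 9 windows for 8 of the 10 genes, with none for Clec10a and Batf2. TGANTCA was found in Itgax and in Zbtb46, where the window lies inside the annotated gene, and in 7.81% of all 32851 windows. The EICE form was found in Cd209a and in 2.72% of all windows. The ISRE and AICE forms, held by 3.44% and 0.119% of all windows, were in none of the 9. Flt3 held none of the 4 motifs. These matches describe letters in the windows and are not evidence of binding.

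FK506 against Control compares activated cultures with and without the calcineurin inhibitor. All 10 genes were higher in every FK506 sample than in every Control sample. Xcr1, Clec9a, Cd209a and Siglech had no read in Control, and how common such separation is among all genes was not worked out. The 6 tested genes were called higher, beside 41.3% of all tested genes. Batf2, Itgax and Clec10a passed the filter only through the groups with FK506 and so had to differ. Only Flt3, Zbtb46 and Irf8 can thus be set against that share. Flt3, Zbtb46 and Irf8 carry the lineage and growth programme of dendritic cells and are described first. Flt3 (chr5:147330741-147400489, GRCm38) was at 0.632, 0.665 and 0.653 FPKM in the Control samples, at 0.721, 0.536 and 0.754 in those with metformin, at 30.7, 34.3 and 32.0 in those with FK506 and at 21.5, 20.8 and 23.0 with the combination. The groups with and without FK506 did not overlap, and the Control and metformin samples did. In FK506 against Control its log2 fold change was 5.35 (SE 0.083, edgeR adjusted p = 4.53e-18). Its mean rose from 0.650 ± 0.0169 FPKM (SD, n = 3) in Control to 32.3 ± 1.80 with FK506.

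Zbtb46 (chr2:181387762-181459426), a zinc finger transcription factor that marks conventional dendritic cells among blood cells, was at 2.06, 1.93 and 2.06 FPKM in Control, 3.69, 4.03 and 4.45 with metformin, 20.8, 23.7 and 21.7 under FK506 and 15.3, 13.5 and 13.9 under both drugs. The 4 groups were fully separated, in the order FK506, Metformin+FK506, metformin and Control, and all neighbours in that order differed in the test. FK506 raised it by 3.42 on the log2 scale (SE 0.059, edgeR adjusted p = 1.56e-17).

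Irf8 (chr8:120736358-120756694), the transcription factor needed for cDC1 and also present in B cells and activated T cells, was already high without FK506. It was at 38.7, 40.9 and 37.9 FPKM in Control, 31.7, 34.6 and 33.0 with metformin, 82.0, 83.6 and 80.1 under FK506 and 59.0, 55.1 and 56.1 under both drugs. The 4 groups were again separated, with metformin lowest. Its rise with FK506 was 0.84 on the log2 scale (SE 0.040, edgeR adjusted p = 5.49e-12), the smallest of the 6.

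Batf2 (chr19:6140983-6172476), a basic leucine zipper factor that can stand in for Batf3 in cDC1, was at 0.172, 0.10 and 0.307 FPKM in Control, 0.0261, 0 and 0.172 with metformin, 1.59, 1.57 and 1.80 under FK506 and 1.33, 1.40 and 0.882 under both drugs. The FK506 groups lay above the others, but the level stayed under 2 FPKM in every sample. Its log2 fold change in FK506 against Control was 2.75 (SE 0.45, edgeR adjusted p = 2.84e-05). The kilobases implied by its counts and FPKM varied up to 1.48-fold between samples, against 1.04-fold for Irf8, so its FPKM and its counts need not give the same order.

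**Figure D1:**
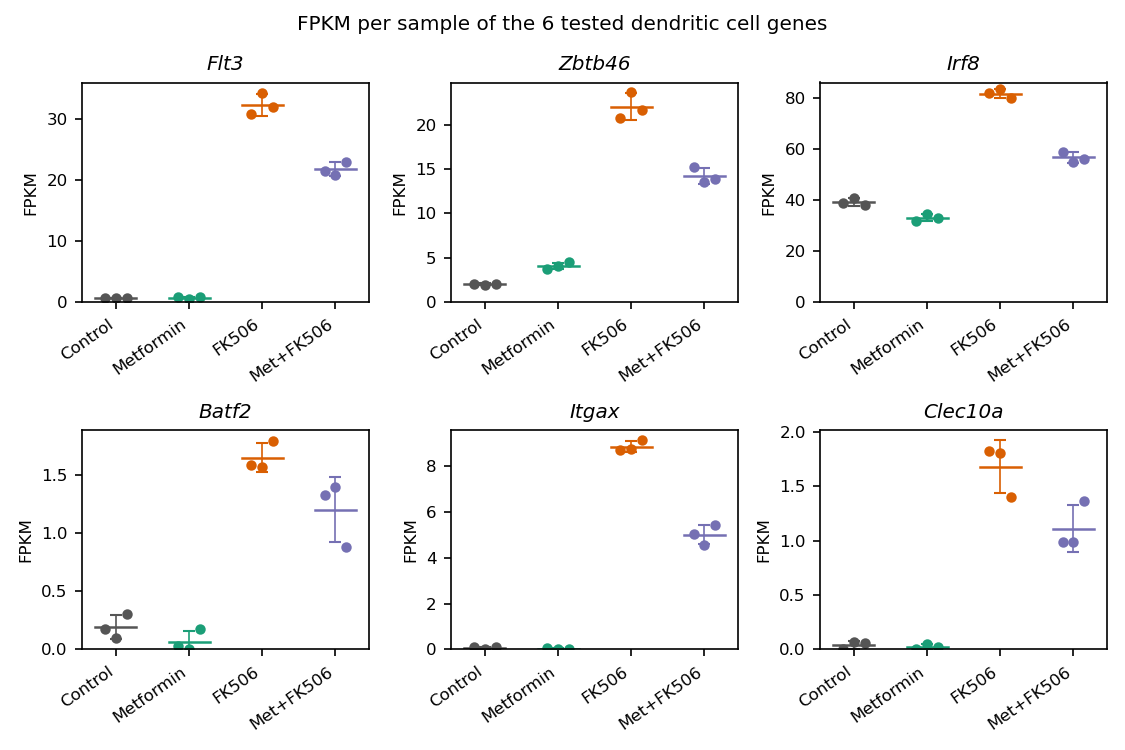
FPKM of Flt3, Zbtb46, Irf8, Batf2, Itgax and Clec10a (y axis, each from 0) in the 12 samples by treatment (x axis), with points for samples, long horizontal lines for group means and error bars for the SD (n = 3). FK506 is highest for all 6 genes, Metformin+FK506 is next, and Irf8 alone has a high level without FK506, at 39.2 FPKM in Control.

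Among the surface receptors, Itgax and Clec10a were the ones that reached a clear level. Itgax (chr7:128129547-128150657), the integrin alpha X chain of CD11c, was at 0.102, 0 and 0.0894 FPKM in Control, 0.0341, 0 and 0.0278 with metformin, 8.71, 8.76 and 9.14 under FK506 and 5.06, 4.57 and 5.43 under both drugs. The FK506 groups were separate from each other and from the rest. Its log2 fold change against Control was 7.02 (SE 0.32, edgeR adjusted p = 4.11e-12), which became 7.61 without Control sample 1 and 6.41 without Control sample 2. Control held between 0 and 22 reads of it. Clec10a (chr11:70156197-70170834), the galactose-type lectin CD301a, was at 0, 0.0670 and 0.0620 FPKM in Control and 0, 0.0480 and 0.0166 with metformin. It reached 1.83, 1.81 and 1.40 FPKM with FK506 and 0.983, 0.986 and 1.36 with the combination, and its log2 fold change in FK506 against Control was 4.85 (SE 0.50, edgeR adjusted p = 1.30e-07).

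The 4 other receptors, each used as a marker of a dendritic cell subset, stayed near 0 in all groups. Clec9a (chr6:129408862-129424763), the cDC1 receptor for dead cells, had 0 reads in all Control and metformin samples, 93, 112 and 55 reads with FK506 and 78, 95 and 30 with the combination. Its mean with FK506 was 0.426 ± 0.0985 FPKM (SD, n = 3). Xcr1 (chr9:123852315-123862029), the cDC1 receptor for the chemokine Xcl1, had 0 reads without FK506, 15, 15 and 18 with FK506 and 20, 41 and 2 with the combination. These low counts separated FK506 from Control, while the combination samples spread widely.

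Cd209a (chr8:3743397-3748984), a C-type lectin of cDC2 and monocyte-derived dendritic cells, had 17, 4 and 11 reads with FK506 and 0 in the 9 other samples. Siglech (chr7:55768178-55778925), the sialic acid binding lectin of pDC, had 10, 12 and 3 reads with FK506, 4 in 1 metformin sample, 8 in 1 sample of the combination and 0 elsewhere. Control held 0 reads for all 4 genes. Against a floor of 3 reads per sample, the mean with FK506 was at least 23.4-fold higher for Clec9a, 4.54-fold for Xcr1 and 2.96-fold for Cd209a. For Siglech the mean gave 2.19-fold, with 1 FK506 sample at the floor itself. In a test of all 27636 genes with any read, of which 27.4% were higher, the adjusted p from edgeR was 3.70e-07 for Clec9a, 0.0015 for Xcr1, 0.0176 for Cd209a and 0.0373 for Siglech, but with no read in Control and few or none with metformin these 4 could only be called higher, so nothing is read from their number. These 4 receptors were thus detected with FK506 at 112 reads per sample or fewer, with means up to 0.426 FPKM. Flt3, Zbtb46, Itgax and Irf8, which are shared between subsets or with other cells, had means of 8.87 to 81.9 FPKM. Other cDC1 genes were higher with FK506, as Cadm1 at a mean of 3.24 FPKM, or near 0, as Cd207 at 0.0228. The 4 receptors therefore do not stand for all genes of the subsets. The name dendritic cell genes is kept for the list and is not a cell count. In bulk RNA more cells of a type and more RNA per cell cannot be told apart.

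**Figure D2:**
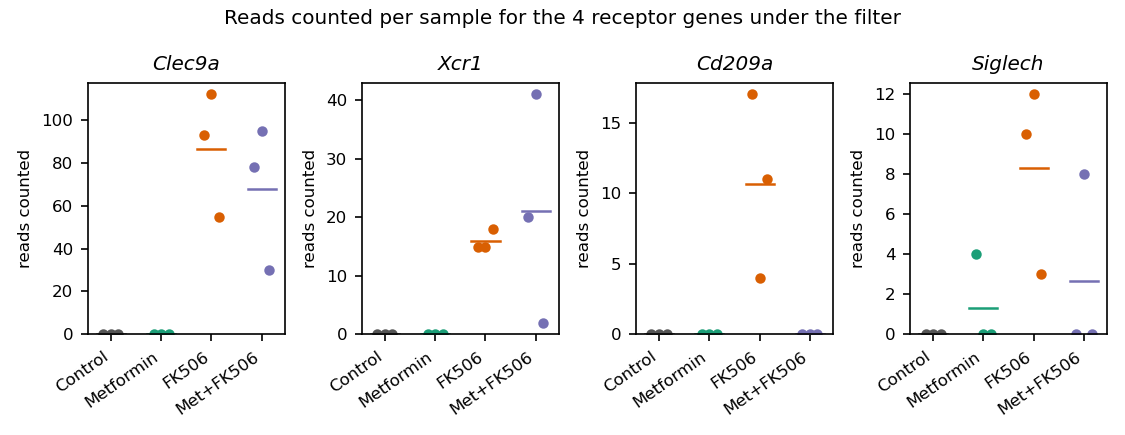
Reads counted per sample (y axis, each from 0) for Clec9a, Xcr1, Cd209a and Siglech by treatment (x axis), with points for samples and lines for group means. Control samples are at 0 for all 4 genes, the highest single value is 112 reads for Clec9a with FK506, and Cd209a is at 0 in all samples of the combination.

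Some of these genes have close relatives whose reads could be assigned to them, and how the authors' counting treated such reads is not given in the sources used here. Clec10a lies near Mgl2 (chr11:70130329-70137550), which encodes the related lectin CD301b of cDC2. Over their coding sequences 811 of 914 aligned bases were identical, which is 88.7%. One stretch of 183 bases, at coding bases 502 to 684 of Clec10a and 550 to 732 of Mgl2, was the same in both, and a read inside it cannot tell the genes apart. The next 60 bases held 4 differences, shown in capitals, at coding bases 685 to 744 of Clec10a and 733 to 792 of Mgl2 (GRCm38 reference, GENCODE annotation).
Clec10a: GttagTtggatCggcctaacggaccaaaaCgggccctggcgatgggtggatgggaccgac
Mgl2: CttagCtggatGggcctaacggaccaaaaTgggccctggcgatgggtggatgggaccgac
Of all 50-base words in the Clec10a transcripts, 9.02% occurred in another gene. The share was 8.02% for Itgax, all with Itgad, and 4.02% for Clec9a, all with Clec1b, which reached 493, 302 and 379 reads with FK506. It was 1.63% for Xcr1, 0.389% for Siglech, 0.111% for Batf2 and 0.049% for Flt3, and Zbtb46, Irf8 and Cd209a shared none. Mgl2 itself was at 1.13, 0.805 and 0.933 FPKM with FK506 and at 0.201, 0.309 and 0.0800 with the combination. In Metformin+FK506 against FK506 its log2 fold change was -2.19 (SE 0.49, edgeR adjusted p = 0.00284), against -0.58 for Clec10a.

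The ligands and partner proteins of the 10 genes did not move as a block. Of 12 tested, 11 reached 0.5 FPKM without FK506, and 4 of these were higher with FK506 than Control and 5 lower. The remaining gene, Csf2rb, passed the filter through its level with FK506 and so had to differ. Csf2rb, the common beta chain of the GM-CSF receptor, was at 7.73 (SE 0.084). The other higher ones included Tyrobp (DAP12), the adaptor that carries the Siglech signal, at 7.36 (SE 0.13), and Spi1 (PU.1), a factor of myeloid cells, at 5.35 (SE 0.097). Their edgeR adjusted p-values were between 1.58e-19 and 2.64e-17. The lower ones were Flt3l, Csf2, Batf, Batf3 and Irf4. Csf2, which encodes GM-CSF, changed by -4.84 (SE 0.21, edgeR adjusted p = 2.09e-12) and Irf4 by -2.41 (SE 0.046, edgeR adjusted p = 4.55e-17).

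Batf3, the partner of Irf8 in cDC1 and also a gene of activated T cells, moved against Irf8 in FK506 against Control, while both were lower with metformin alone and with metformin added to FK506. It was at 59.2 ± 1.31 FPKM (SD, n = 3) in Control, 11.4 ± 0.417 with metformin, 23.7 ± 2.73 under FK506 and 13.1 ± 2.33 under both drugs, and FK506 changed it by -1.53 on the log2 scale (SE 0.11, edgeR adjusted p = 9.03e-10). Flt3l, the ligand of Flt3, was at 27.4 ± 1.34 FPKM in Control and 19.5 ± 1.43 with FK506, a log2 change of -0.78 (SE 0.070, edgeR adjusted p = 2.55e-08), so the receptor rose while the ligand fell. Itgb2, the beta chain that pairs with Itgax, gave -0.05 (SE 0.034, edgeR adjusted p = 0.216). Xcl1, the ligand of Xcr1, was highest with metformin alone, at 11.5, 15.0 and 14.8 FPKM, against 1.85, 0.549 and 0.711 in Control, a log2 change of 3.70 (SE 0.33, edgeR adjusted p = 8.95e-08).

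Other dendritic cell genes were compared as lists. All 10 genes of mature dendritic cells were higher with FK506 than in Control. Their log2 fold changes had a median of 2.22, against 0.02 over all tested genes. Fscn1, the actin bundling protein fascin of mature dendritic cells, rose from 6.20 ± 0.319 to 165 ± 1.3 FPKM (SD, n = 3), a log2 change of 4.52 (SE 0.070, edgeR adjusted p = 4.24e-18). The chemokine Ccl22 rose by 3.97 (SE 0.069) and the surface protein Cd83 by 2.09 (SE 0.037), with edgeR adjusted p-values of 1.64e-17 and 1.89e-17. Several of these genes, Cd83, Ccl22, Ccr7 and Relb among them, are expressed by activated B cells or T cells as well.

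Of 10 other cDC1 genes, 6 were tested and all 6 were higher. Of the 6, Cadm1 and Tlr3 were under 0.5 FPKM in every sample without FK506, so for them passing the filter already required a rise. The others included Wdfy4, which cDC1 need for cross-presentation, at 4.07 (SE 0.088, edgeR adjusted p = 2.40e-16). FK506 put Cadm1, at 0 in Control, at least 240-fold higher. Of 10 other cDC2 genes, 8 were tested and 7 were higher, but 6 of the 8 were under 0.5 FPKM in every sample without FK506 and passed the filter through their level with it. Of the remaining 2, Notch2 was higher and Klf4 was not called. Sirpa, one of the 6 and shared with macrophages, reached 60.3 ± 4.73 FPKM. Of 15 other pDC genes, 14 were tested. Of the 12 that reached 0.5 FPKM without FK506, 6 were higher and 3 lower, while Tlr9 and Ccr9 reached it only with FK506. Tlr9 and Spib, both also B cell genes, rose by 5.58 (SE 0.12) and 4.21 (SE 0.066), and Cox6a2 changed by -2.95 (SE 0.37). Their edgeR adjusted p-values were 2.46e-16, 5.01e-18 and 1.79e-06.

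Markers of other cell types moved with the same contrast. All 10 tested of 12 macrophage markers were higher with FK506. Of the 10, all but Cd68 were under 0.5 FPKM in every sample without FK506 so for them passing the filter already required a rise. The summed FPKM of the 12 went from 4.32 to 4.53 in Control and 8.50 to 9.73 with metformin to 1238 to 1273 with FK506 and 796 to 927 with the combination. Adgre1 (F4/80), C1qa, C1qc, Fcgr1 and Cd163 were at 0 in every Control sample, and with FK506 all 12 markers were read. Lyz2 alone stood at 981 ± 10.8 FPKM with FK506. All 10 B cell markers were higher as well, 9 of which reached 0.5 FPKM without FK506, with sums of 62.9 to 66.9 in Control and 886 to 926 with FK506. T cell markers stayed high, with sums of 2336 to 2391 in Control and 2046 to 2162 with FK506, and 7 of 12 were lower and 4 higher, which became 4 lower and 5 higher on quantile normalized FPKM. Of 8 monocyte and neutrophil markers 7 were tested, of which 4 reached 0.5 FPKM only with FK506, and of the other 3, 1 was higher and 2 were lower. Of 6 CD8+ T and NK cell markers 3 were tested, with 1 higher and 1 lower. The part of macrophages and B cells in the rise of the 10 genes was not tested.

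**Figure D3:**
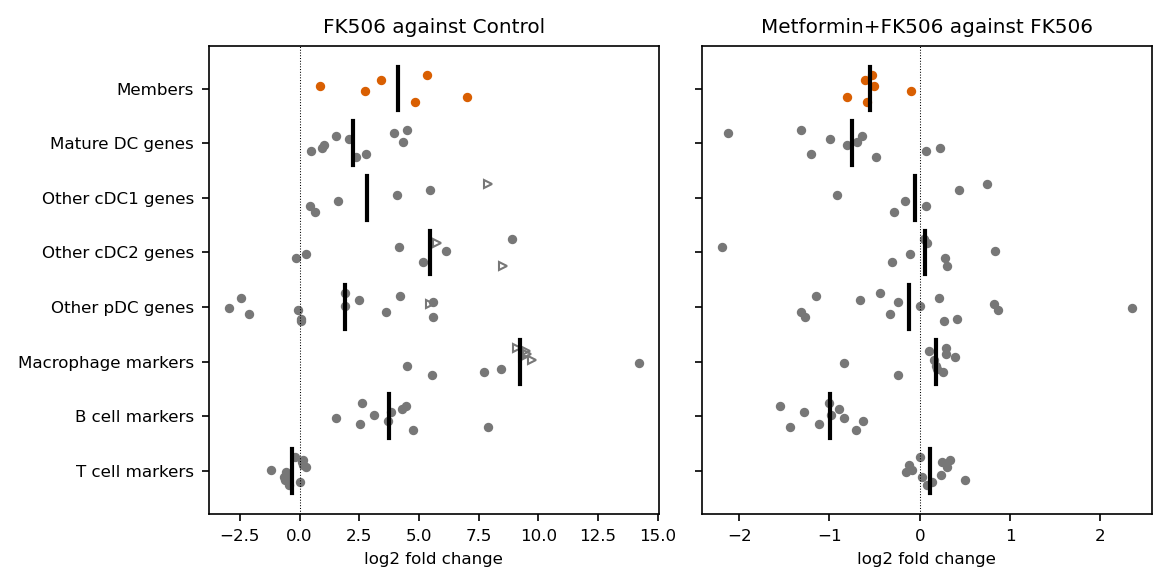
Log2 fold change (x axis) of each tested gene, 1 point per gene, by list (y axis), for FK506 against Control and Metformin+FK506 against FK506, with vertical bars for list medians and open triangles for genes at the floor in Control, placed at their lower bound. With FK506 the members and the macrophage and B cell markers lie to the right of 0, and with metformin added the members, with a median of -0.55, lie beside the mature dendritic cell genes at -0.75 and the B cell markers at -0.99, while the macrophage markers have a median of 0.19.

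Metformin+FK506 was next compared with each group that lacked FK506. These comparisons share their samples with those above, so their values are set side by side and not counted as further evidence. Against Control Flt3, Zbtb46 and Irf8 were higher, beside 42.1% of all tested genes. Batf2, Itgax and Clec10a were called higher too, but they passed the filter only through the groups with FK506 and so had to differ. The log2 fold changes were 4.81 for Flt3, 2.81 for Zbtb46, 0.34 for Irf8, 2.66 for Batf2, 6.21 for Itgax and 4.27 for Clec10a, with edgeR adjusted p-values between 1.76e-17 and 4.15e-05. Itgax was at 6.80 without Control sample 1 and at 5.61 without Control sample 2. Against metformin alone the same 6 genes were also higher, beside 40.3% of all tested genes, with the same limit for Batf2, Itgax and Clec10a. The values ran from 0.61 for Irf8 and 1.76 for Zbtb46 to 7.67 for Itgax. Batf2, at 4.27, became 6.16 without metformin sample 3, and Clec10a, at 5.15, became 6.29 without metformin sample 2. Clec9a was at least 19.1-fold higher than Control (edgeR adjusted p = 6.37e-07 over all genes with any read, of which 27.4% were higher). Xcr1 had an adjusted p of 9.96e-04 in that test on 20, 41 and 2 reads, 1 of them under the floor, so no fold is given. Siglech did not pass that test (edgeR adjusted p = 0.129). Cd209a was at 0 reads in all 3 groups.

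Metformin+FK506 against FK506 asks what metformin changed when tacrolimus was present. Flt3, Zbtb46, Irf8 and Itgax were lower in the combination, 4 of the 6 tested, beside 15.0% of all tested genes that were lower and 15.6% that were higher. The samples of these 4 genes did not overlap those of FK506 alone. How common such separation is among all tested genes was not worked out, so it adds nothing to the calls. The mean of Flt3 was 32.3 ± 1.80 FPKM (SD, n = 3) with FK506 and 21.7 ± 1.10 with the combination, a log2 change of -0.53 (SE 0.060, edgeR adjusted p = 4.78e-06). Zbtb46 went from 22.1 ± 1.51 to 14.2 ± 0.934 FPKM, a log2 change of -0.61 (SE 0.050, edgeR adjusted p = 1.63e-07). Irf8 went from 81.9 ± 1.73 to 56.7 ± 2.02 FPKM, a log2 change of -0.50 (SE 0.039, edgeR adjusted p = 8.78e-08).

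Itgax went from 8.87 ± 0.233 to 5.02 ± 0.428 FPKM, a log2 change of -0.81 (SE 0.20, edgeR adjusted p = 0.0052). DESeq2 gave a similar size for Itgax, -0.82, but an adjusted p of 0.596. Clec10a, at 1.68 ± 0.241 and 1.11 ± 0.219 FPKM, gave -0.58 (SE 0.34) and did not pass (edgeR adjusted p = 0.224), although limma on log2(FPKM + 1) called it lower at an adjusted p of 0.0103. Batf2 gave -0.10 (SE 0.37, edgeR adjusted p = 0.88). The 6 genes had a median log2 fold change of -0.55, against 0.0019 over all tested genes.

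Among the 4 low receptors Cd209a was at 0 in the combination, at least 3.28-fold lower than with FK506 (edgeR adjusted p = 0.0467 over all genes with any read, of which 8.37% were lower), on 32 reads in all, and with no read in the combination it could only be lower. Clec9a, Xcr1 and Siglech gave adjusted p-values of 0.665, 0.925 and 0.563 and did not pass.

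The other lists differed from each other in this comparison. Of the 10 mature dendritic cell genes 7 were lower in the combination and 1 was higher, at a median of -0.75 on the log2 scale. Ccl22 was at 152, 145 and 138 FPKM with FK506 and at 32.7, 30.8 and 34.9 with the combination, a log2 change of -2.12 (SE 0.061, edgeR adjusted p = 1.05e-12). Fscn1 changed by -1.31, Cd80 by -1.20 and Cd83 by -0.996, with edgeR adjusted p-values between 1.12e-11 and 2.09e-10. Ccl22 attracts cells that bear Ccr4, and Cd80 is a ligand of Cd28 on T cells.

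Of the tested cDC1 genes 1 was higher and 1 lower, of the cDC2 genes 3 were higher and 1 lower, and of the pDC genes 6 were higher and 7 lower. Wdfy4 was lower at -0.91 (SE 0.073, edgeR adjusted p = 1.26e-07) and Cadm1 higher at 0.74 (SE 0.19, edgeR adjusted p = 0.00852). With DESeq2, 2 cDC1 genes were lower and the higher call was lost. Of the ligands and partners, 5 were lower and 1 higher. Csf2rb changed by -0.57 (SE 0.053, edgeR adjusted p = 6.72e-07) and Batf3 by -0.83 (SE 0.11, edgeR adjusted p = 3.08e-05), while Flt3l gave 0.07 (SE 0.071, edgeR adjusted p = 0.507).

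Of the other cell types, all 10 B cell markers were lower in the combination, with sums of 427 to 458 FPKM. Of 10 tested macrophage markers 3 were higher, between 1 and 5 under other scalings, and 1, Lyz2, was lower at -0.84 (SE 0.078, edgeR adjusted p = 6.01e-07), and Csf1r and Adgre1 gave 0.16 and 0.29 with adjusted p-values of 0.104 and 0.0862. Of the T cell markers 5 were higher and 2 lower, and on quantile normalized FPKM 7 and 1. The part of B cells in the lower level of the dendritic cell genes was not tested.

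Metformin against Control gives the effect of metformin without FK506. One gene was higher, beside 28.6% of all tested genes, and 2 were lower, beside 27.4%. Zbtb46 was higher, at 4.05 ± 0.381 against 2.01 ± 0.0708 FPKM (SD, n = 3), a log2 change of 1.06 (SE 0.062, edgeR adjusted p = 4.36e-10). Irf8 was lower, at 33.1 ± 1.46 against 39.2 ± 1.54 FPKM, a log2 change of -0.28 (SE 0.040, edgeR adjusted p = 2.21e-05). The metformin and Control samples of Zbtb46 and of Irf8 did not overlap, but how common that is among all tested genes was not worked out.

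Batf2 was called lower at -1.61 (SE 0.62, edgeR adjusted p = 0.0373), on 13, 13 and 29 reads in Control and 3, 0 and 15 with metformin, which overlapped. This call was lost without Control sample 3 (adjusted p = 0.178), without metformin sample 1 (0.123) or without metformin sample 2 (0.111). Over all single samples left out the value ran from -3.50, without metformin sample 3, to -1.04, without metformin sample 2. Itgax gave -1.45 (SE 0.77, edgeR adjusted p = 0.121) on 22, 0 and 19 reads against 8, 0 and 7, and was called lower without Control sample 2, at -2.06 with an adjusted p of 0.00253. Clec10a gave -0.87 (SE 0.85, adjusted p = 0.404), and -2.01 to -0.33 when single samples were left out. Flt3 gave -0.0044 (SE 0.11, adjusted p = 0.989), and its sign changed with the scale. Among the mature dendritic cell genes 4 were higher and 6 lower with metformin, and among the B cell markers 8 were higher and 1 lower, with sums of 87.2 to 102 FPKM.

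The interaction of metformin and FK506 compares the change that metformin made in the presence of FK506 with the change it made in its absence. It was negative for Flt3, Zbtb46 and Irf8, 3 of the 6 tested genes, beside 24.0% of all tested genes with a negative and 22.5% with a positive interaction. For Zbtb46 it was -1.66 (SE 0.079, edgeR adjusted p = 7.06e-11), because metformin raised it by 1.06 without FK506 and changed it by -0.61 with FK506. For Flt3 it was -0.53 (SE 0.13, edgeR adjusted p = 0.00329) and for Irf8 -0.23 (SE 0.056, edgeR adjusted p = 0.0032), so the fall of Irf8 with metformin was larger when FK506 was present. Batf2, Itgax and Clec10a gave 1.52 (SE 0.73), 0.65 (SE 0.80) and 0.29 (SE 0.86), with adjusted p-values of 0.102, 0.542 and 0.813. Leaving out single samples moved the Batf2 value between 0.947 and 3.40, the Itgax value between 0.06 and 1.25 and the Clec10a value between -0.25 and 1.43. Batf2 was called at 3.40 without metformin sample 3 (edgeR adjusted p = 0.00277) and at 1.53 with DESeq2 (adjusted p = 0.0387). The levels of the 3 genes without FK506 rest on 29 reads per sample or fewer, and the sign of all 3 was negative on the log2(FPKM + 1) scale, on which the Itgax interaction was called at -0.66 (limma adjusted p = 0.00015). Of the mature dendritic cell genes 7 had a negative and 1 a positive interaction, and of the B cell markers 9 were negative.

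**Figure D4:**
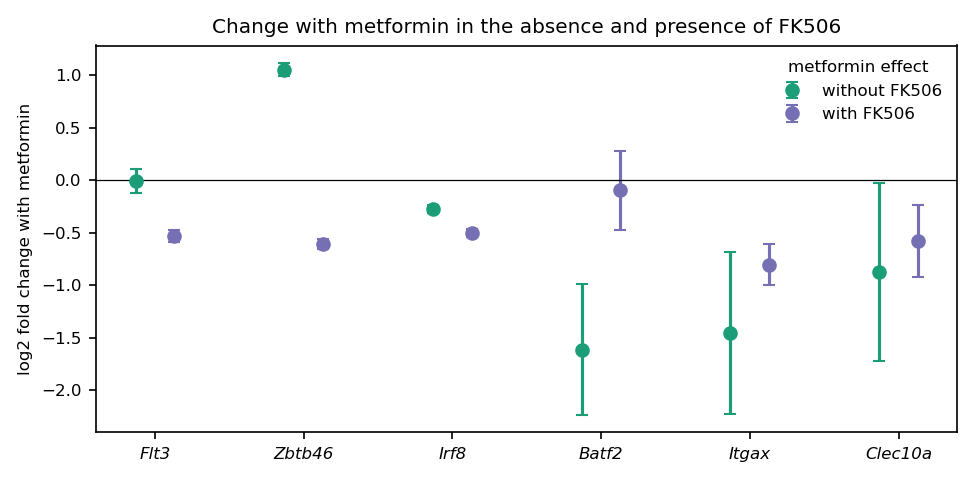
Log2 fold change with metformin (y axis) of the 6 tested genes (x axis), without FK506 and with FK506, with points for the edgeR estimates and bars for their SE. Zbtb46 lies at 1.06 without FK506 and at -0.61 with FK506, and Batf2, Itgax and Clec10a, with 29 reads per sample or fewer in each group without FK506, have the widest bars.

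The 6 tested genes followed a similar course over the 12 samples. Pearson's r between pairs of them, on log2(FPKM + 1), ran from 0.901 for Zbtb46 and Irf8 to 0.996 for Flt3 and Itgax. The samples form separate clusters with and without FK506, which alone gives a high r, and all genes share the same libraries, so r is used here to rank and not to test. Flt3 had 463 other genes with r over 0.99 and Itgax 273, against 95 for Zbtb46, 43 for Clec10a and 9 for Irf8. The genes most like Flt3 were the chemokine receptor Ccr6 (r = 0.9997), Flrt3 (0.9994) and Grn (0.9993). Ccr6 was at 0.263, 0.260, 38.5 and 22.5 FPKM (Control, metformin, FK506 and Metformin+FK506 in turn), close to the levels of Flt3 in the groups with FK506 and below them in the others.

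Those most like Itgax were Kmo (0.9995), Cd180 (0.9994) and Phf24 (0.9993). The genes most like Zbtb46 were Dennd5a (0.9979), Hvcn1 (0.9978) and Rp2 (0.9974). Each of them was also higher in mean with metformin than in Control, which the choice by r over the same samples favours. Irf8 was most like Cd83 (0.9951), Gm39972 (0.9922) and Ccl22 (0.9921). Their means were below Control with metformin, as that of Irf8 was, which the same choice favours. Clec10a was most like Zfp706 (0.9970), Nlrc4 (0.9945) and H2-DMb2 (0.9942), and Batf2 like Tm9sf2 (0.9889), Mir3064 (0.9885) and Igkj3 (0.9881). Cd83 and Ccl22 are thus the genes of the mature dendritic cell list that also head the ranking for a member.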

How the data were processed

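The authors sequenced polyadenylated RNA of splenic CD4+ T cells, with 12 samples in 4 groups of 3 taken from the sample labels. Per the labels, the processing used bcl2fastq 2.20.0, Trimmomatic, HISAT2 2.1.0, StringTie 2.1.3b and mm10. The authors deposited whole-number read counts per gene, without normalization, and FPKM values, which are scaled to library size and transcript length. A further 12 columns with values of single samples were left out. How reads shared between genes were counted, and the use of strand, are not given in the sources used here.

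The counts were tested with edgeR 4.0.16 (TMM scaling, quasi-likelihood test) in R 4.3.3, in one fit of all 4 groups with 8 residual degrees of freedom. Genes with at least 0.5 FPKM in at least 3 samples were tested (15197). Alternatives were RLE scaling, DESeq2 1.42.0, no filter, limma 3.58.1 on log2(FPKM + 1), on log2(FPKM + 0.1) and on quantile normalized FPKM, a replicate block, only the groups compared, and leaving out each sample. The code was tested on simulated data. Floors of 3 reads per sample cover counting error only, and folds against them use the mean of the other group. All replicate pairs differed by more than sampling noise (chi-square test of their counts). Sequences and positions came from RefSeq (GRCm38.p6) and the GENCODE annotation of GRCm38, the build called mm10 in the labels, with Biopython 1.88 in Python 3.11.15.

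The 10 genes and the lists of ligands and partners, cDC1, cDC2, pDC, mature dendritic cell, macrophage, monocyte and neutrophil, B cell, T cell, and CD8+ T and NK cell genes, and of paralogs, were chosen with earlier results of these data known. Named were the 10 genes, their ligands, partners and closest paralogs, at most 6 genes per list by the size of change in FK506 against Control, and the 3 genes most like each tested gene. Other genes were named outside this rule, after their values were seen (Ccr7, Relb, Fcgr1, Cd163, Notch2, Klf4, Cd68 and Cd207). Lists are described by counts and medians, without a test. Of the 22 paralogs, 15 were tested, of which 9 were under 0.5 FPKM in every sample without FK506 and had to differ. Of the other 6, 2 were higher and 4 lower in FK506 against Control.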

Additional observations from a re-analysis of the deposited data

Results flagged for a closer look

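The change with metformin differed between cultures with and without FK506 for 3 genes, by the interaction term of the edgeR test. It was -1.66 on the log2 scale for Zbtb46 (adjusted p = 7.06e-11), -0.53 for Flt3 (adjusted p = 0.00329) and -0.23 for Irf8 (adjusted p = 0.0032). Zbtb46 was higher with metformin in 3 of 3 samples without FK506 and lower in 3 of 3 samples with it. Irf8 was lower in 3 of 3 samples both times. The B cell marker sum moved the same way as Zbtb46, from 62.9 to 66.9 FPKM in Control to 87.2 to 102 with metformin, and from 886 to 926 with FK506 to 427 to 458 with the combination, and its part in these interactions was not tested.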

How the results depend on the processing

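Over all alternatives 684 fold changes of the 6 tested genes kept their direction and their side of the threshold, 9 lost the call, 5 gained it and 16 changed sign, and 227 counts of called genes stayed within 1.5 times while 11 did not. The calls of Flt3, Zbtb46 and Irf8 in FK506 against Control, in Metformin+FK506 against FK506 and in the interaction held under every alternative run. Without the filter on low values 10 genes in place of 6 were higher with FK506 than Control, beside 27.4% of all genes in that test, and the 4 added genes could only be called higher. The 2 genes lower with metformin became 1 without the filter, with limma on log2(FPKM + 1), log2(FPKM + 0.1) or quantile normalized FPKM and with only the groups compared, and were between 1 and 3 when single samples were left out. Batf2 was the gene lost there, at adjusted p-values of 0.0519 to 0.217. Positive interactions, absent from the main test of the 6 genes, numbered 1 with DESeq2, for Batf2 at 1.53 (adjusted p = 0.0387), and 0 to 1 when samples were left out, with Batf2 at 3.40 (adjusted p = 0.00277) without metformin sample 3. The cause was not tested.

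The sign changed for Flt3 in Metformin against Control, to 0.0153 with log2(FPKM + 1) and 0.0270 with log2(FPKM + 0.1), with a range of -0.10 to 0.14 when samples were left out. It changed for Batf2 in Metformin+FK506 against FK506, where leaving out samples gave -0.26 to 0.026, and for the interactions of Batf2 (-0.11 with log2(FPKM + 1), -0.027 with quantile normalized FPKM), Itgax (-0.66 with log2(FPKM + 1), -0.43 with log2(FPKM + 0.1), and -0.64 with quantile normalized FPKM) and Clec10a (-0.32, -0.35 and -0.27 on the same 3 scales in turn, and -0.25 to 1.43 when samples were left out). Clec10a in Metformin+FK506 against FK506 was called with quantile normalized FPKM, at -0.32 (adjusted p = 0.0309).

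On log2(FPKM + 1) the median of all tested genes in FK506 against Control was 0.19 rather than 0.02, and 61.3% rather than 51.1% of called genes were higher. Irf8 was at 1.05 on that scale, 0.84 in the main test.

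Same-numbered samples did not deviate together (18 pairs, r from -0.146 to 0.0853), so the numbers were not taken to pair the samples. With the replicate block the numbers called were 6 higher in FK506 against Control, 4 lower in Metformin+FK506 against FK506 and 3 negative interactions, as without it, and no call of the 6 genes changed. Across scalings the lists of mature dendritic cell and B cell genes kept 10 genes higher in FK506 against Control, while T cell markers turned on quantile normalized FPKM, from 4 higher and 7 lower to 9 higher and 3 lower in Metformin+FK506 against Control. Xcr1, Cd209a and Siglech rest on 41 reads per sample or fewer, Clec9a on 112 or fewer, and Batf2, Itgax and Clec10a on 29 or fewer without FK506.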
